A study of Komagataella pastoris with 6 samples.

Results

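The genes described here are the 2 whose product descriptions resemble the myo-inositol transporters of baker's yeast, out of 5030 genes measured in the methylotrophic yeast *Komagataella pastoris* (*Pichia pastoris*). They are gene-PAS_chr2-1_0489, likened by its description to the major transporter Itr1p and called ITR1-like here, and gene-PAS_chr4_0828, likened to the minor transporter Itr2p and called ITR2-like. They were selected on the measured levels described here, because these differed in opposite directions between the strains, so their levels, their ratio and their sum are given as a description without a test. Messenger RNA was sequenced from 3 cultures of the strain HTX-33, whose genotype is labelled WT, and from 3 cultures of HTX33_ILV3, a strain on the HTX33 background that overexpresses Ilv3, the dihydroxyacid dehydratase of valine and isoleucine synthesis (the ILV3 strain). All 6 cultures, which the series design calls biological replicates, received 0.5% methanol in a basal salt medium and were harvested while growing exponentially. The sources used here do not give the promoter that drives ILV3, its copy number, whether the strain is 1 clone or what HTX33 itself carries.

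Myo-inositol is a cyclic polyol that yeast cells build into phosphatidylinositol, from which phosphoinositide signals, inositol polyphosphates, inositol-containing sphingolipids and membrane anchors of proteins are made. In *Saccharomyces cerevisiae* it is either made from glucose 6-phosphate by the synthase Ino1 or taken up by Itr1 and Itr2, proton-coupled carriers of the sugar porter family in the plasma membrane. There, ITR1 is the main route and its transcription is repressed by inositol, while ITR2 contributes little uptake and is expressed constitutively. Whether the *K. pastoris* genes share these properties was not measured here.

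Values are TPM, a transcript's share of the messenger RNA after scaling by length, set to a fixed total of 1000000 per library. In such bulk values, fewer cells that express a gene and less of its RNA per cell cannot be told apart. The deposited table is named FPKM, but each library sums to 1000000, as TPM does; that the values are scaled by length rests on that name and on this sum, and comparisons of level between genes depend on it. Each library lists 10 to 20 genes at 0, and the sequencing depth is unknown. The overexpressed gene checked the labels: ILV3 (PAS_chr1-4_0458) was at 87.95, 79.8 and 91.9 TPM in the control libraries and at 2564, 2680 and 2633 TPM in the ILV3 libraries.

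ITR2-like was an abundant transcript in the control strain, at 1829, 1816 and 1878 TPM, and lay at 321, 318 and 355 TPM in the ILV3 strain. All 3 ILV3 libraries were far below all 3 control libraries, and the strain means were 1841 ± 32.7 and 331 ± 20.5 TPM (SD, n = 3 each), a 5.56-fold difference. Its log2 fold change, ILV3 strain over control, was -2.47 (SE 0.05) on the log2(TPM + 1) scale used for every fold change here. Among the 5025 genes kept by a filter at a mean of 1 TPM, it ranked 9 from the bottom. Among the transcripts of a library it ranked 98 to 104 of 5030 in the control and 449 to 493 in the ILV3 strain.

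ITR1-like went the other way from a far lower level. It was at 57.8, 58.5 and 60.5 TPM in the control libraries and at 165, 193 and 188 TPM in the ILV3 libraries, again with no overlap between strains. The means were 58.9 ± 1.37 and 182 ± 14.8 TPM (SD, n = 3 each), a 3.09-fold difference, with a log2 fold change of 1.61 (SE 0.06), which ranked 12 from the top of the 5025 genes. Its rank among the transcripts of a library moved from between 2172 and 2281 in the control to between 774 and 892 in the ILV3 strain. In the authors' deposited table the log2 fold changes are 1.64 for ITR1-like and -2.46 for ITR2-like.

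**Figure D1:**
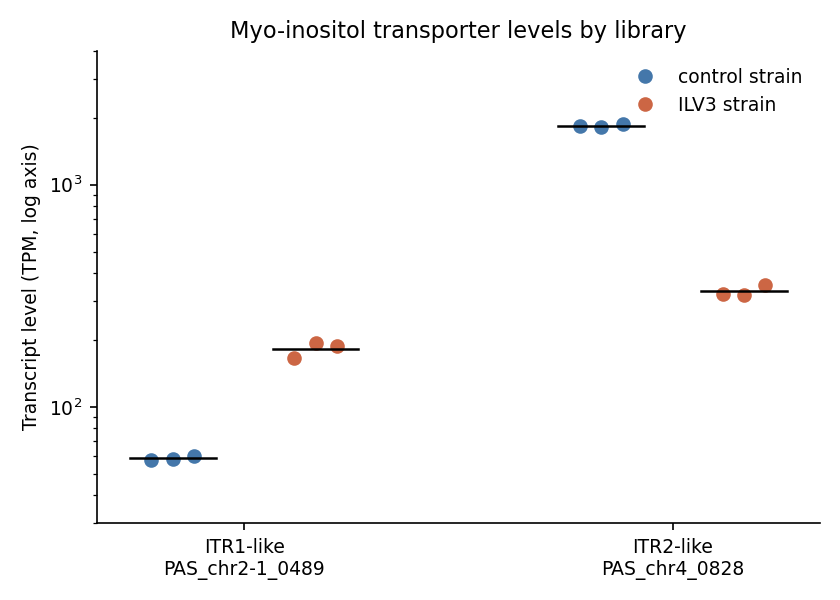
Transcript level in TPM (log axis) of the ITR1-like and ITR2-like genes in each library of the control and ILV3 strains; points are libraries and lines are means of 3. The ITR1-like points lie near 58.9 TPM in control cultures and 182 TPM in ILV3 cultures, and the ITR2-like points near 1841 and 331 TPM.

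Replicates of a strain lay close together for both genes, and more closely in the control than in the ILV3 strain. The coefficient of variation of ITR1-like was 2.33% in the control and 8.15% in the ILV3 strain, and that of ITR2-like was 1.77% and 6.18%; with 3 libraries a strain, the difference in spread was not tested. Control replicate 3 was the highest control library for both genes. In the ILV3 strain the genes did not peak in the same library: ITR1-like was highest in replicate 2 and lowest in replicate 1, while ITR2-like was highest in replicate 3 and lowest in replicate 2.

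The balance between the transporters shifted toward ITR1-like, though ITR2-like stayed the more abundant transcript in every library. The ratio of ITR2-like to ITR1-like was 31.6, 31.1 and 31.1 in the control libraries and 1.94, 1.65 and 1.89 in the ILV3 libraries. The ratio thus had a mean of 31.3 ± 0.331 in the control and 1.83 ± 0.159 in the ILV3 strain (SD, n = 3 each), a 17.1-fold difference of means. The ratio compares levels between genes, but its change between strains does not depend on their lengths. ITR1-like made up 3.10% ± 0.0317 of the pair's summed TPM in the control and 35.4% ± 2.05 in the ILV3 strain (SD, n = 3 each).

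The sum of the pair was lower in the ILV3 strain, because the difference in ITR2-like was far larger in TPM than that in ITR1-like. The sum was 1887, 1874 and 1938 TPM in the control libraries and 486, 511 and 542 TPM in the ILV3 libraries, with means of 1900.0 ± 33.9 and 513 ± 28.2 TPM (SD, n = 3 each), a 3.70-fold difference. The difference between strain means was -1509.7 TPM for ITR2-like and 123 TPM for ITR1-like, which offset 8.15% of the former. The sources used here do not say how reads that match both genes were assigned.

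**Figure D2:**
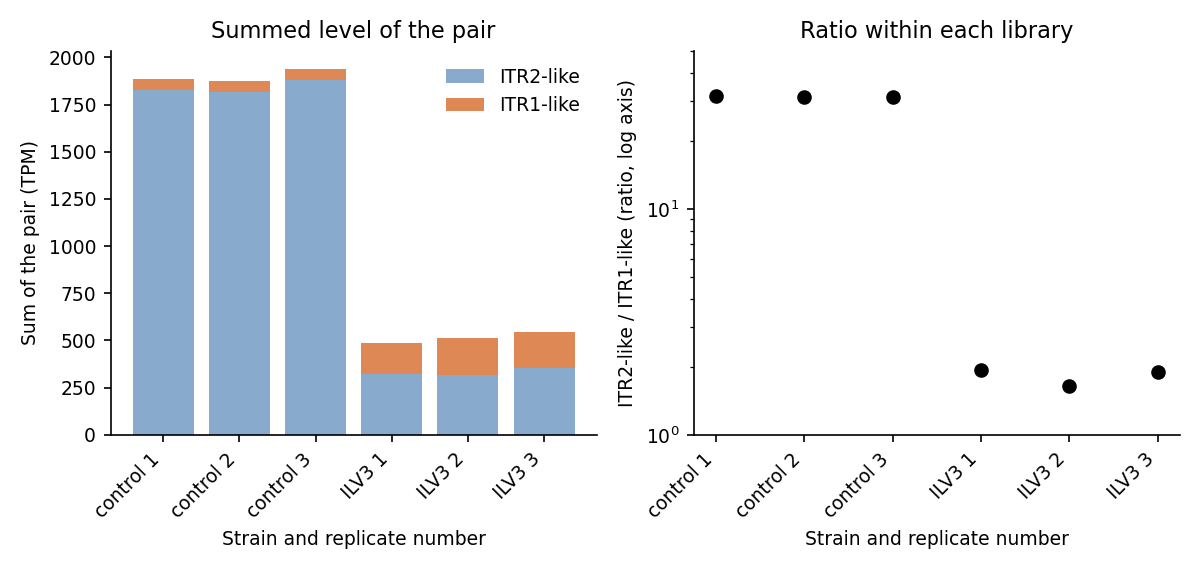
Left, stacked levels in TPM of ITR2-like and ITR1-like in each library, so that bar height is the sum of the pair; right, the ratio of ITR2-like to ITR1-like in each library (log axis). The sums stand at 1874 to 1938 TPM in the control and 486 to 542 TPM in the ILV3 strain, and the ratios at 31.1 to 31.6 and 1.65 to 1.94.

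Among 15 transporters or sensors described as carriers of myo-inositol, sugars or glycerol, the pair included at the same time the most abundant one of the control and a middling one. In every control library ITR2-like ranked 1 of 15 and ITR1-like ranked 9. In the ILV3 libraries ITR2-like ranked 2 and ITR1-like ranked 3 or 4. The order above ITR1-like in the ILV3 strain was headed by a high-affinity glucose transporter (PAS_chr1-4_0570), at 818 ± 31.9 TPM in control cultures and 849 ± 36.4 TPM in ILV3 cultures (SD, n = 3 each), which did not pass the test (limma adjusted p = 0.38). A putative member of the sugar porter family (PAS_chr3_0023) stood beside ITR1-like in the ILV3 strain, at 165 ± 3.11 against 182 ± 14.8 TPM, and there the libraries of these genes overlapped in level.

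The other 13 transporters or sensors were tested with limma across all 5025 genes, at a Benjamini-Hochberg adjusted p under 0.05, two-sided. Of all genes tested, 49.3% were called, 22.1% as higher and 27.2% as lower in the ILV3 strain. Of the 13, 2 were higher, 5 were lower and 6 did not pass, with a median log2 fold change of -0.11 against -0.02 over all genes tested. The sugar porter PAS_chr3_0023 fell from 500.1 ± 11.04 TPM to 165 ± 3.11 (log2 fold change -1.60, limma adjusted p = 1.22e-08). It was at 497, 491 and 512 TPM in the control libraries and at 166, 161 and 167 TPM in the ILV3 libraries. A log2 fold change of 1 or more in size, in either direction, was reached by 3.38% of all genes tested.

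Genes described as glycerol-proton symporters, which take up glycerol at the plasma membrane, did not move alike. PAS_chr3_1076 fell from 68.7 ± 3.97 TPM to 33.9 ± 1.78 (log2 fold change -0.997, limma adjusted p = 2.62e-06) and PAS_chr3_1099 fell from 77.5 ± 3.12 TPM to 41.1 ± 1.06 (log2 fold change -0.90). A further symporter gene, PAS_chr4_0571, rose from 64.2 ± 1.21 TPM to 73.9 ± 2.68 (log2 fold change 0.20), and the last, PAS_chr1-1_0028, was at 30.8 ± 0.478 and 32.95 ± 0.265 TPM (limma adjusted p = 0.16). A hexose transporter of moderate glucose affinity (PAS_chr1-3_0004) rose from 17.2 ± 0.991 TPM to 25.0 ± 3.13 (log2 fold change 0.51, limma adjusted p = 0.00208). The other gene described as a hexose transporter, PAS_chr2-1_0054, fell from 12.3 ± 0.547 TPM to 8.88 ± 0.922 (log2 fold change -0.44, limma adjusted p = 0.0048). The plasma membrane glucose sensor PAS_chr1-1_0300 was at 107 ± 1.31 and 97.6 ± 5.87 TPM, which did not pass (limma adjusted p = 0.0714). A lower call for another sugar porter, PAS_chr1-3_0011, was weak: its libraries overlapped between strains, and its limma adjusted p of 0.0351 rose above 0.05 under 8 of 15 alternatives, reaching 0.118 without ILV3 replicate 3. It was also lost without ILV3 replicate 2 (0.0988), control replicate 2 (0.115) or control replicate 3 (0.0571), and it is named here after its values were seen.

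**Figure D3:**
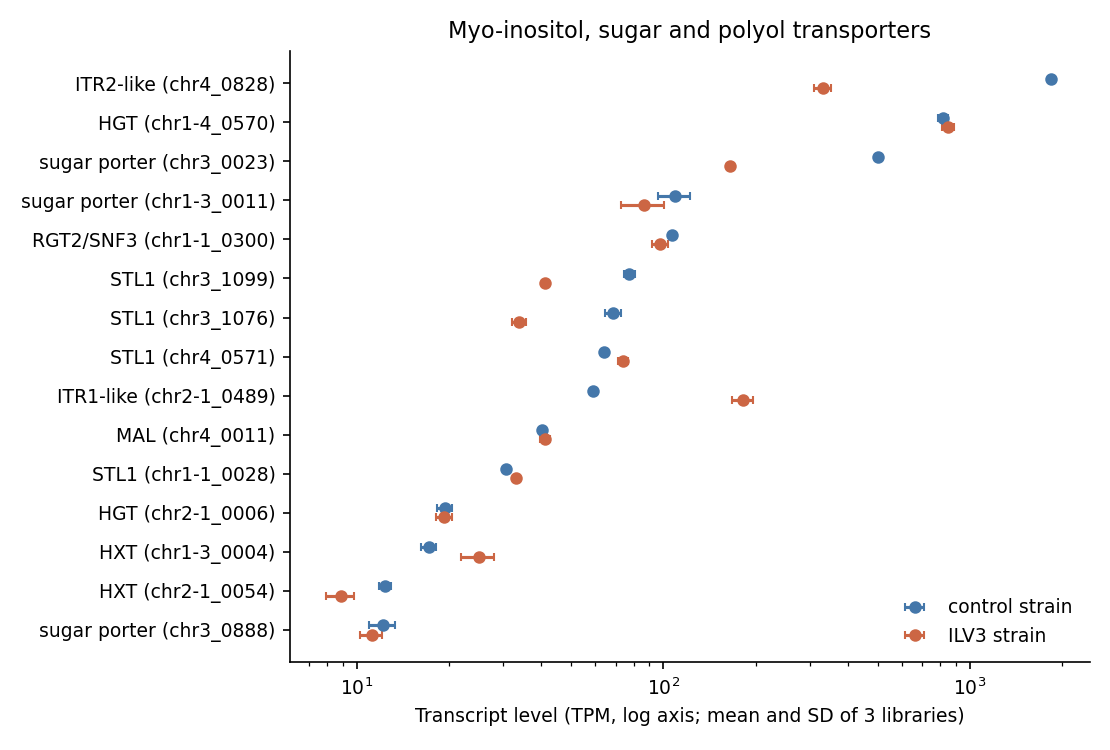
Levels in TPM (log axis) of the pair and of the 13 other transporters or sensors in the control and ILV3 strains; points are means and bars are SDs of 3 libraries. ITR2-like moved from 1841 to 331 TPM and ITR1-like from 58.9 to 182 TPM, while the glucose transporter PAS_chr1-4_0570 lay at 818 and 849 TPM. HXT, HGT, MAL, STL1 and RGT2/SNF3 name the yeast transporter or sensor family that the product description resembles.

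The genes whose profiles over the 6 libraries were most like each transporter were found by the Euclidean distance between log2(TPM + 1) values centred on each gene's mean, among 4772 other genes whose mean reached 10 TPM. The libraries fall into only 2 strains, so the distance mostly records the size and direction of the strain difference. Nearest to ITR1-like was a TRAPP complex subunit, part of the machinery that tethers vesicles at the Golgi (PAS_chr2-2_0180, distance 0.30), at 42.9 ± 4.52 TPM in control cultures and 139 ± 6.70 TPM in ILV3 cultures (SD, n = 3 each). It was followed by the undescribed PAS_chr2-1_0701 (0.31), a membrane-associated protein of Vid vesicles, which carry cargo to the vacuole (PAS_chr4_0047, 0.32), a sugar phosphatase similar to Dog2p (PAS_chr2-1_0016, 0.32) and the uncharacterized PAS_chr4_0947 (0.34). The phosphatase gene had nearly the control level of ITR1-like, 58.8 ± 0.728 TPM, and lay at 154 ± 6.19 TPM in the ILV3 strain.

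Nearest to ITR2-like was a lectin-like gene similar to the flocculin Flo1p (PAS_chr1-4_0584, distance 0.27), at 250.1 ± 19.9 TPM in control cultures and 38.8 ± 1.07 TPM in ILV3 cultures (SD, n = 3 each). The next were the genes PAS_chr1-4_0226 (0.29), PAS_chr3_0015 (0.33) and PAS_chr3_0030 (0.40), none with a product name. ITR2-like was more abundant in the control than these 4 genes, of which PAS_chr3_0030 was the highest at 842 ± 88.9 TPM. No gene of inositol or sugar transport was among the genes named as nearest to either transporter.

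**Figure D4:**
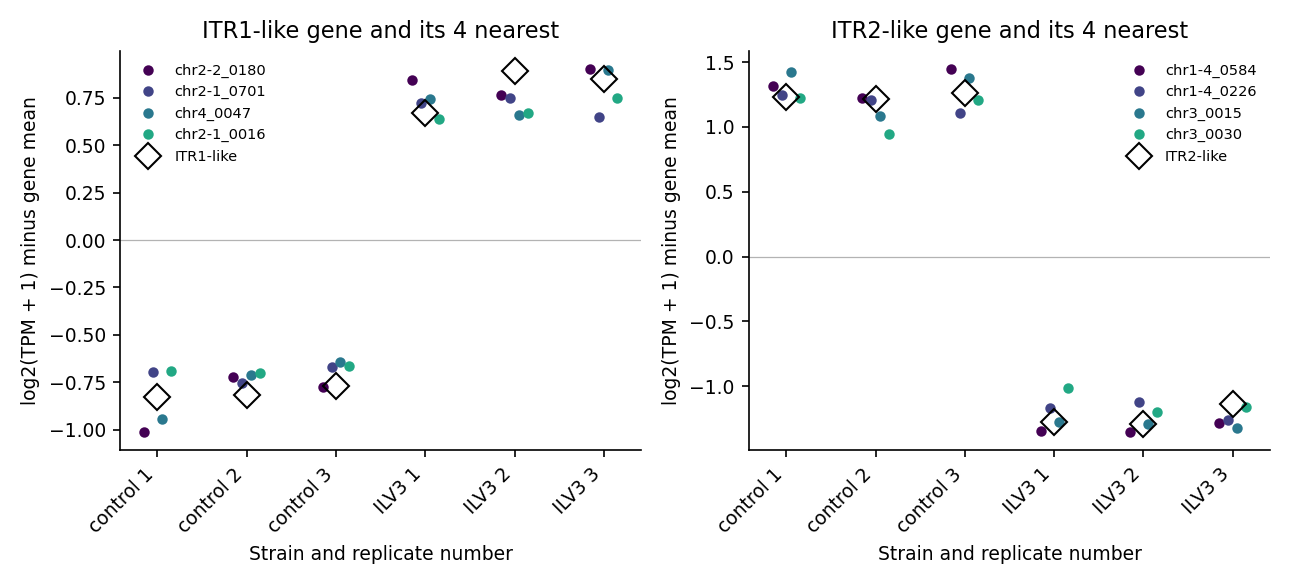
Centred log2(TPM + 1) values in each library of ITR1-like (left) and ITR2-like (right), drawn as diamonds, and of the 4 genes nearest to each, drawn as dots set slightly apart. All lie on one side of their mean in the control and on the other in the ILV3 strain, at distances of 0.30 to 0.32 for ITR1-like and 0.27 to 0.40 for ITR2-like.

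Genes with neighbouring locus tags did not show differences of the size seen in the pair. The tags next to ITR1-like, PAS_chr2-1_0488 and PAS_chr2-1_0490, rose from 277 ± 3.95 TPM to 365 ± 11.4 and from 813 ± 15.5 TPM to 929 ± 55.2, log2 fold changes of 0.40 and 0.19. The first has no product name, and the second is described as a transcriptional regulator of nitrogen catabolite repression. Beside ITR2-like, the unnamed PAS_chr4_0827 fell from 119 ± 5.20 TPM to 82.9 ± 2.20 (log2 fold change -0.51, limma adjusted p = 3.68e-05). On its other side, PAS_chr4_0829 was at 129 ± 3.81 and 123 ± 8.33 TPM (limma adjusted p = 0.383). Tags with a number 2 away had log2 fold changes of -0.19 and -0.07 near ITR1-like and of -0.03 and 0.14 near ITR2-like. Position was read from the tag numbers, since no coordinates were used here.

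Genes that make, use or signal through inositol were sorted by role from their product descriptions. Phospholipid genes, many of which answer to inositol in *S. cerevisiae*, were added. This gave 36 genes in 5 lists, 10 of them in the phospholipid list. Across these lists 6 genes were called higher, 13 lower and 17 did not pass, where 22.1% of all genes tested were higher and 27.2% lower; none of the 36 differed 2-fold. The phospholipid list held 5 of the 6 higher and 4 of the 13 lower calls. The strains did not overlap in 22 of the 36 genes, against 57.2% of all genes tested. The median log2 fold change of the 36 was -0.08, against -0.02 over all genes tested.

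Inositol synthesis itself was a minor transcript. INO1 (PAS_chr2-2_0113), the inositol 1-phosphate synthase that opens the route, was at 5.7, 5 and 4.3 TPM in the control libraries and at 9.42, 10.3 and 7.86 TPM in the ILV3 libraries. These did not overlap, and INO1 rose from 5 ± 0.7 TPM to 9.20 ± 1.24 (log2 fold change 0.76, SE 0.14, limma adjusted p = 0.00147), a level at which the log2(TPM + 1) scale understates the change. The inositol monophosphatase INM1 (PAS_chr4_0730), which releases free inositol, was at 31.0 ± 1.23 and 29.3 ± 2.90 TPM (limma adjusted p = 0.424). Of the 7 yeast genes listed for synthesis and its control, 2 were matched by description; the regulators INO2, INO4, OPI1 and SCS2 were not analysed here.

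PIS1 (PAS_chr2-1_0695), the phosphatidylinositol synthase, was at 69.4 ± 3.54 and 65.9 ± 6.74 TPM (limma adjusted p = 0.445). Of 14 genes of phosphatidylinositol and phosphoinositide metabolism, none was higher, 4 were lower and 10 did not pass. Of all genes tested, 22.1% were higher and 27.2% lower. The lower share was thus near the background, and whether the lack of higher calls departs from it was not tested. The 5-phosphatase INP54 (PAS_chr1-3_0235) fell from 88.9 ± 1.46 TPM to 63.1 ± 0.461 (log2 fold change -0.49, limma adjusted p = 2.15e-05), and the phosphoinositide phosphatase SAC1 (PAS_chr1-4_0617) fell from 116 ± 3.55 TPM to 86.3 ± 3.53 (log2 fold change -0.42). INP51 (PAS_chr2-1_0424), a synaptojanin-like phosphatase, fell from 26.3 ± 1.63 TPM to 20.6 ± 0.491 (log2 fold change -0.34). The list's other phosphatases did not pass: INP52/INP53 (PAS_chr1-4_0456) was at 22.9 ± 1.41 and 21.03 ± 0.882 TPM (limma adjusted p = 0.213), and YMR1 (PAS_chr3_0354) was at 21.7 ± 0.938 and 22.1 ± 0.306 TPM (limma adjusted p = 0.748). CDS1 (PAS_chr2-2_0044), which makes the CDP-diacylglycerol used by PIS1, fell from 55.8 ± 3.78 TPM to 49.2 ± 0.965 (log2 fold change -0.18, limma adjusted p = 0.035), a call lost with the replicate number as a block (0.0602), with quantile normalization (0.106) and without any 1 of 5 libraries, control replicate 2 being the exception (0.063 to 0.134). In this list the number called was 7 with median-ratio scaling or quantile normalization, which also called the kinases PIK1 and VPS34 higher. They were not the only genes of the list to gain a call among the 15 alternatives. VPS15 (PAS_chr3_0042) was called lower in 3, STT4 (PAS_chr1-3_0100) lower in 1 and MSS4 (PAS_chr1-1_0457) higher in 1.

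Of 5 genes of inositol sphingolipids, 4 were called lower and none higher, where 27.2% of all genes tested were lower and 22.1% higher. AUR1 (PAS_chr2-2_0330) and KEI1 (PAS_chr3_0113) belong to the synthase that transfers phosphoinositol to ceramide. They fell from 29.1 ± 1.42 TPM to 24.0 ± 1.19 and from 61.2 ± 2.65 TPM to 50.6 ± 3.01, log2 fold changes of -0.26 and -0.27. A gene of the mannosylating step (SUR1 or CSH1, PAS_chr1-3_0218) fell from 52.1 ± 3.48 TPM to 39.2 ± 0.121 (log2 fold change -0.40, limma adjusted p = 0.000526). IPT1 (PAS_chr3_0735), which adds the second phosphoinositol, fell from 34.0 ± 1.22 TPM to 25.5 ± 1.13 (log2 fold change -0.40). The phospholipase ISC1 (PAS_chr4_0866), which breaks these lipids down, was at 45.5 ± 1.73 and 44.6 ± 1.47 TPM (limma adjusted p = 0.686). The list's median log2 fold change was -0.27. Of 5 genes of inositol polyphosphates, DDP1 (PAS_chr3_0281), a phosphatase of inositol pyrophosphates, fell from 207 ± 4.78 TPM to 162 ± 5.26 (log2 fold change -0.35, limma adjusted p = 0.000172), and the other 4 did not pass; 2 of the 5 were called with median-ratio scaling and 3 with quantile normalization, SIW14 as higher in both.

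Phospholipid genes, many of which answer to inositol and choline in *S. cerevisiae*, moved both ways, with 5 of 10 higher and 4 lower. Of all genes tested, 22.1% were higher and 27.2% lower. ACC1 (PAS_chr1-4_0249), the acetyl-CoA carboxylase, and FAS2 (PAS_chr1-4_0295), the alpha subunit of fatty acid synthase, rose from 208 ± 11.1 TPM to 309.7 ± 13.7 and from 275 ± 10.6 TPM to 404 ± 23.6, log2 fold changes of 0.57 and 0.55. CHO1 (PAS_chr1-1_0420), the phosphatidylserine synthase, fell from 163 ± 5.40 TPM to 109.6 ± 6.35 (log2 fold change -0.57, limma adjusted p = 3.2e-05), and the diacylglycerol kinase DGK1 (PAS_chr3_0072) fell from 59.7 ± 3.08 TPM to 46.9 ± 1.31 (log2 fold change -0.34). The methyltransferases that turn phosphatidylethanolamine into phosphatidylcholine differed in direction. CHO2 (PAS_chr1-4_0093) rose from 35.4 ± 2.26 TPM to 44.6 ± 0.875 (log2 fold change 0.33), while OPI3 (PAS_chr3_0859) fell from 353 ± 15.9 TPM to 314 ± 14.6 (log2 fold change -0.17, limma adjusted p = 0.0218). The OPI3 call was lost with quantile normalization (limma adjusted p = 0.0923) and without control replicate 1 (0.0542), control replicate 3 (0.0866) or ILV3 replicate 1 (0.0785).

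**Figure D5:**
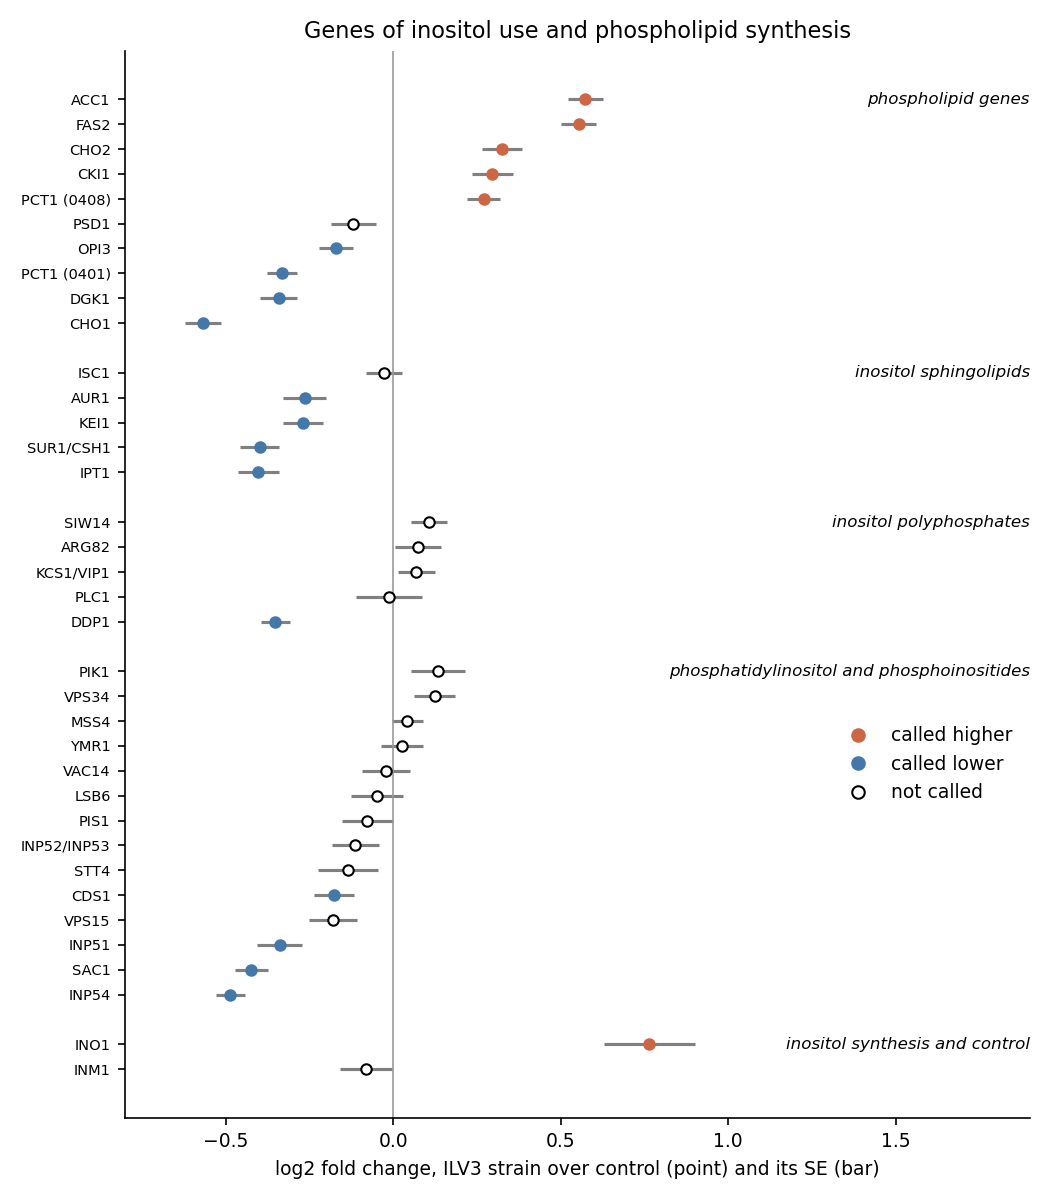
Log2 fold changes, ILV3 strain over control (points), with their standard errors (bars), of 36 genes of inositol use and phospholipid synthesis in 5 lists by role; filled points passed limma's test at an adjusted p under 0.05. All lie between -0.57 and 0.76, inside the values of the transporter pair (-2.47 and 1.61), which is not drawn.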

How the data were processed

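Per the labels' protocols, the mRNA libraries came from a stranded kit that ligates its adapters. The authors deposited 1 value per gene and library in a table named FPKM; the columns sum to 1000000 and were treated as deposited TPM. HISAT2, TopHat2 and DESeq2 are named in the submitters' processing notes, without versions; the sources used here give neither build nor annotation. A log2 fold change by the authors is also in the deposited table, printed for the pair, as is a p-value, which was not used. None of the gene IDs matched the reference gene table (0 of 5030), and no sequence was used.

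The filter kept 5025 of 5030 genes, those whose mean reached 1 TPM. Values as log2(TPM + 1) were fitted in limma (version 3.58.1, R 4.3.3), letting the prior variance follow mean expression, and p-values were adjusted by Benjamini-Hochberg over the kept genes. The procedure was also run on simulated data with the control's spread in both groups, independent libraries and few changed genes. As the real libraries differ in these respects, that run does not show how well the fit holds here. The members, lists and named genes were chosen with earlier results of these data known, and list genes were matched by product description. Named were the pair, ILV3, 6 core genes of inositol and phospholipid synthesis where matched, up to 4 called genes per list with the largest changes, transporters with a mean of at least 100 TPM or a 2-fold change, the 5 nearest profiles (1 of those of ITR2-like is not reported here) and the tags within 2 of each member; genes named beyond these give the rest of a list of similar genes. Deviations from the strain means of same-numbered libraries correlated at 0.223, 0.126 and 0.209, each above 0.1, so the numbers were taken to pair the libraries in an alternative, blocked fit. The calls, adjusted p-values and shares printed here come from the fit without the block, unless another fit is named. The blocked fit called 983 genes higher and 1228 lower over the whole table, and is given where it changes a call. It was not checked for the proteins that carry phosphatidylinositol between membranes. Also tried were a pseudocount of 0.1 or 5, no filter or one at 10 TPM, median-ratio or quantile scaling, no trend or robust empirical Bayes, and each library left out in turn.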

Additional observations from a re-analysis of the deposited data

How the results depend on the processing

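The fold changes, ratio and sum of the pair kept their direction, and moved by less than 1 SD between replicates, in all 13 alternatives that bear on them. The log2 fold change ranged from 1.55 to 1.68 for ITR1-like and from -2.52 to -2.42 for ITR2-like, the difference in log2 ratio from -4.13 to -4.004 and that in log2 sum from -1.93 to -1.84. The number of genes called over the whole table, 2478, was 2211 with the replicate block and 2120 to 2689 without 1 library; the share of called genes that were higher was 44.9%, and 54.04% with quantile normalization. The alternatives were not checked for the proteins that carry phosphatidylinositol between membranes, described below. Of 42 other named or listed genes called besides the pair, 38 kept their call in each of the 15 alternatives that tested them. All were tested throughout, except that INO1 was dropped by the filter at a mean of 10 TPM. The 42 include ILV3 itself and the genes nearest to the pair. Those were picked by their difference between these strains, so their kept calls are no separate sign of stability. The 4 that lost a call are CDS1, OPI3, PAS_chr1-3_0011 and PAS_chr4_0830. The replicate block ended the calls of CDS1 and PAS_chr4_0830 (limma adjusted p = 0.102 for the latter) and changed no other call among them. With a filter at a mean of 10 TPM the list of inositol synthesis had 0 called genes, because INO1 was no longer tested. The phosphoinositide list had 7 called genes with median-ratio scaling and with quantile normalization, and 3 to 6 without 1 library; the polyphosphate list had 2 and 3 with those scalings. The cause was not tested. No description names its yeast symbol, so the stricter matching of lists was not run. The depth is unknown, and 3 libraries a strain limit the precision.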

Other observations

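Proteins that carry phosphatidylinositol between membranes were looked at after their values were seen. All 6 genes so described were called, 3 higher and 3 lower in the ILV3 strain, against 22.1% and 27.2% of all genes tested. Whether these calls hold under the alternative settings was not checked. PAS_chr3_0844 rose from 57.8 ± 0.445 TPM to 103 ± 3.39 (log2 fold change 0.82, limma adjusted p = 1.22e-06). PAS_chr3_0655, described as a phosphatidylinositol and phosphatidylcholine transfer protein, fell from 191 ± 2.04 TPM to 151 ± 5.09 (log2 fold change -0.34), and PAS_FragB_0077 fell from 289 ± 11.2 TPM to 225 ± 6.99 (log2 fold change -0.36).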
